A study of Mus musculus with 6 samples.

Results

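Cish, Socs1, Socs2, Socs3, Pim1, Pim2, Bcl6, Il2ra and Ccnd2 are genes that cytokine-activated STAT5 is known to bind and regulate. They were chosen by name, and their peaks were all those whose nearest transcription start site (TSS) belonged to 1 of the 9 genes and lay within 100000 bp. This gave 195 of 175929 ATAC-seq peaks and 9 of 19781 genes with a peak within that distance. A further 4 peaks nearest to these genes lay beyond the limit and were left out. Socs1 held 54 peaks, Pim1 49, Socs3 22, Bcl6 20, Cish 15, Ccnd2 14, Socs2 11, Il2ra 6 and Pim2 4, and 54 of the 195 were promoter-proximal (at most 3000 bp from the TSS). ATAC-seq cuts open DNA with a transposase, so that the number of tags (sequenced fragment ends) in a peak measures how accessible the DNA was.

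When a cytokine binds its receptor, JAK kinases phosphorylate STAT5, which enters the nucleus and binds sites of the form TTCNNNGAA, often as a pair of neighboring sites. CISH and the SOCS proteins are then made and shut the receptor and the kinase off, which closes a negative feedback loop. The same signal raises genes of survival and division, including the PIM kinases and cyclin D2, in blood stem and progenitor cells and in many leukemias. USP18, the gene product targeted here, is best known for damping interferon receptor signaling, which uses the JAK kinases JAK1 and TYK2.

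The cells were mouse leukemia cells that express AML1/ETO 9a (AE9a), a shortened form of the AML1-ETO fusion protein, and that carry 1 floxed Usp18 allele and UBCER-Cre, a Cre recombinase driven by the ubiquitin C promoter and switched on by tamoxifen. After transplantation and once recipients were ill, 1 group received oil and stayed Usp18+/f (replicates 1, 2 and 4), and the other received tamoxifen, which removes the floxed allele to give Usp18+/Δ (replicates 1, 3 and 4). Lin- c-Kit+ GFP spleen cells were sorted 3 days after the first injection. Both groups carried the floxed allele, the Cre and AE9a, 1 Usp18 allele stayed intact in both, and only 1 group received tamoxifen, so that effects of the drug or of active Cre cannot be told apart from those of losing the allele. The labels do not tie each library to a mouse of its own, so each SD and p measures the spread between these libraries, which may be in part technical. The recipients' own cells were removed only by the sort.

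Libraries held 57.4 to 74.7 M tags (1 M is 1000000 tags), of which 23652 to 27980 lay in the 195 peaks. Pairs of oil libraries differed by little more than counting error over all peaks (chi-square per degree of freedom 1.04 to 1.22), and tamoxifen replicates 1 and 3 gave 1.49. Tamoxifen replicate 4 lay farther from the other tamoxifen libraries (2.66 and 2.68) than from each oil library (1.73 to 1.96). For several peaks and sums that it sets apart, values without it are therefore given as well. Summed tags of the marker list for the sorted cells (Kit, Cd34, Spi1, Mpo and Cebpa, each with a peak) ran from 5681 to 5975 after oil and 5966 to 6448 after tamoxifen. Of lists for other cell types, T-cell genes gave 2143 to 2288 after oil and 2432 to 2622 after tamoxifen, mature myeloid genes 2619 to 2753 and 2857 to 2977, and erythroid genes 10298 to 10627 and 9225 to 9960. B-cell sums (2035 to 2169 and 2011 to 2293) and mast cell and basophil sums (6862 to 7460 and 6687 to 7250) overlapped between groups. Of all these markers, Ms4a1 and Camp had no peak, and of those reported here the sums of Cd34, Mpo, Cd3d and Fcer1a were higher and that of Ms4a2 lower at a DESeq2 adjusted p under 0.05. These were 2 of 5 genes for the sorted cells, 1 of 8 T-cell genes, and 1 higher and 1 lower of 7 mast cell and basophil genes. None (0) of the 5 B-cell and 7 mature myeloid genes with a peak passed. Over all gene sums 6.0% passed. The part of these shifts in the results below was not tested, and in bulk cells a change in the share of a cell type and a change per cell cannot be told apart.

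The DNA of these peaks was first searched for the STAT5 site TTCNNNGAA, whose fixed letters read the same on both strands. In the 200 bp around the peak center, 20 of the 195 peaks (10.3%) held at least 1 site, against 8524 of 175738 peaks on the assembled chromosomes (4.85%). At least 2 sites stood in 4 of the 195, against 270 of all peaks. Promoter-proximal peaks of the members held a site in 6 of 54 (11.1%, against 4.29% of all proximal peaks) and distal ones in 14 of 141 (9.93%, against 5.10%). Over whole peaks the figures were 25 of 195 (12.8%) and 7.09% of all peaks. Of the 32 sites in those 25 peaks, 10 read TTCCTGGAA or its reverse complement TTCCAGGAA. Peaks of Socs1 held most (8 peaks over their whole length), followed by Cish, Socs3 and Pim1 (4 each), Bcl6 and Ccnd2 (2 each) and Socs2 (1), and those of Pim2 and Il2ra held none. The same letters also match sites of other STAT proteins and overlap those of BCL6, and a match describes the letters only and does not show that STAT5 binds there.

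The following sequences (mm10, read from the RefSeq GRCm38.p6 reference, which shares its chromosome coordinates) are shown because they are the member peaks that passed the test or hold sites at a start site. Each reads 5′ to 3′ on the strand of its gene, with the letters of TTCNNNGAA sites in capitals. Names give the distance of the peak center from the TSS in bp. Cish +9672 (chr9:107306219-107306443, plus strand) and Socs1 +13253 (chr16:10772180-10772386, minus strand) are intergenic and are shown whole.
Cish +9672: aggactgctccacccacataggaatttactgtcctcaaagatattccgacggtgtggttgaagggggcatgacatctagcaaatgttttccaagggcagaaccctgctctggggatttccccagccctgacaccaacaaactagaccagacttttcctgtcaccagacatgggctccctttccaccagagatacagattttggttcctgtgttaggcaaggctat
Socs1 +13253: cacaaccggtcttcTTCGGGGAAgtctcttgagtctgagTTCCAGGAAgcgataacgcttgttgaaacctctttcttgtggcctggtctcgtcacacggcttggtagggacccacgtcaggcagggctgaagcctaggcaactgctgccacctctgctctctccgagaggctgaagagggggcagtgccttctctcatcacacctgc
The Socs1 peak held 2 sites and the Cish peak none. The start-site peak of Cish is shown from its first base to the end of its second site (chr9:107296476-107296678, plus strand), of which the last 20 bases are the first of exon 1.
Cish -71: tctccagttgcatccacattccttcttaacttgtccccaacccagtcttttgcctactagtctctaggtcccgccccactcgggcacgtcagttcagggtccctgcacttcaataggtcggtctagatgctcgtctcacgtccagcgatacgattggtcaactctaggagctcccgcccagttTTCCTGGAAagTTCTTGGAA
The start-site peaks of Socs2 (chr10:95416899-95416928, minus strand), Socs3 (chr11:117969229-117969258, minus strand) and Bcl6 (chr16:23988612-23988641, minus strand) are shown for 30 bases around their sites.
Socs2 +4: gcggaTTCCTGGAAagTTCCTGGAAagcgg
Socs3 +162: cggccgggcagTTCCAGGAAtcggggggcg
Bcl6 +61: tgaTTCTTAGAActggggTTCTTAGAAgtg
The pairs of Cish and Socs2 were each 2 bases apart. The Socs2 pair lay 51 and 62 bp upstream of the annotated start of NM_007706, within an exon of predicted longer transcripts, whereas the Socs3 site lay 123 bp into exon 1 of NM_007707 and the Bcl6 pair 218 and 233 bp into exon 1 of NM_009744. The Bcl6 peak held 2 further sites, 1 of them 114 bp upstream of the TSS. In the 300-base promoter sequences of RefSeq (GRCm38.p6), which were found for all members but Socs2 and Ccnd2, those of Cish, Socs3 and Bcl6 held a site, against 8.30% of 32851 promoters, and Cish and a second Bcl6 promoter held 2 or more, against 0.457%.

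To ask whether accessibility of these genes differed after tamoxifen, each peak was tested with DESeq2's Wald test on the whole table. Of the 195 peaks, 2 had an adjusted p under 0.05 (Benjamini-Hochberg, over all peaks), which is 1.03%, against 1.39% of all peaks. Both were higher after tamoxifen, against 1.22% of all peaks in that direction, and both were distal. None (0) also passed the study's fold change of 2, against 0.654% of all peaks. At an unadjusted p under 0.05 there were 20 (10.3%), against 9.02%, of which 14 were higher and 6 lower. The 3 tamoxifen values lay above the 3 oil values in 22 peaks (11.3%, against 11.8%) and below them in 16 (8.21%, against 9.99%). The median log2 fold change of tamoxifen over oil was 0.03 over the 195 peaks and -0.00134 over all peaks. By these counts the 195 peaks stood near the whole table.

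The counts of calls moved with the libraries, for these peaks as for the whole table. Without tamoxifen replicate 4, 5 of the 195 peaks passed (2.56%, against 3.71% of all peaks). Cish +9672 and Socs1 +4926, +13253 and +16508 were higher, and Pim1 -28090 was lower. The Socs1 peak at +4926 bp had a log2 fold change of 0.62 in that fit (DESeq2 adjusted p = 0.00463), against 0.40 (0.453) with all libraries. Without each other library in turn, 1 or none (0) of the 195 peaks passed, against 0.358% to 0.613% of all peaks. In those fits DESeq2 gave an adjusted p for 153 to 184 of the 195. With edgeR's quasi-likelihood test 3 passed, against 2.92% of all peaks.

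**Figure D1:**
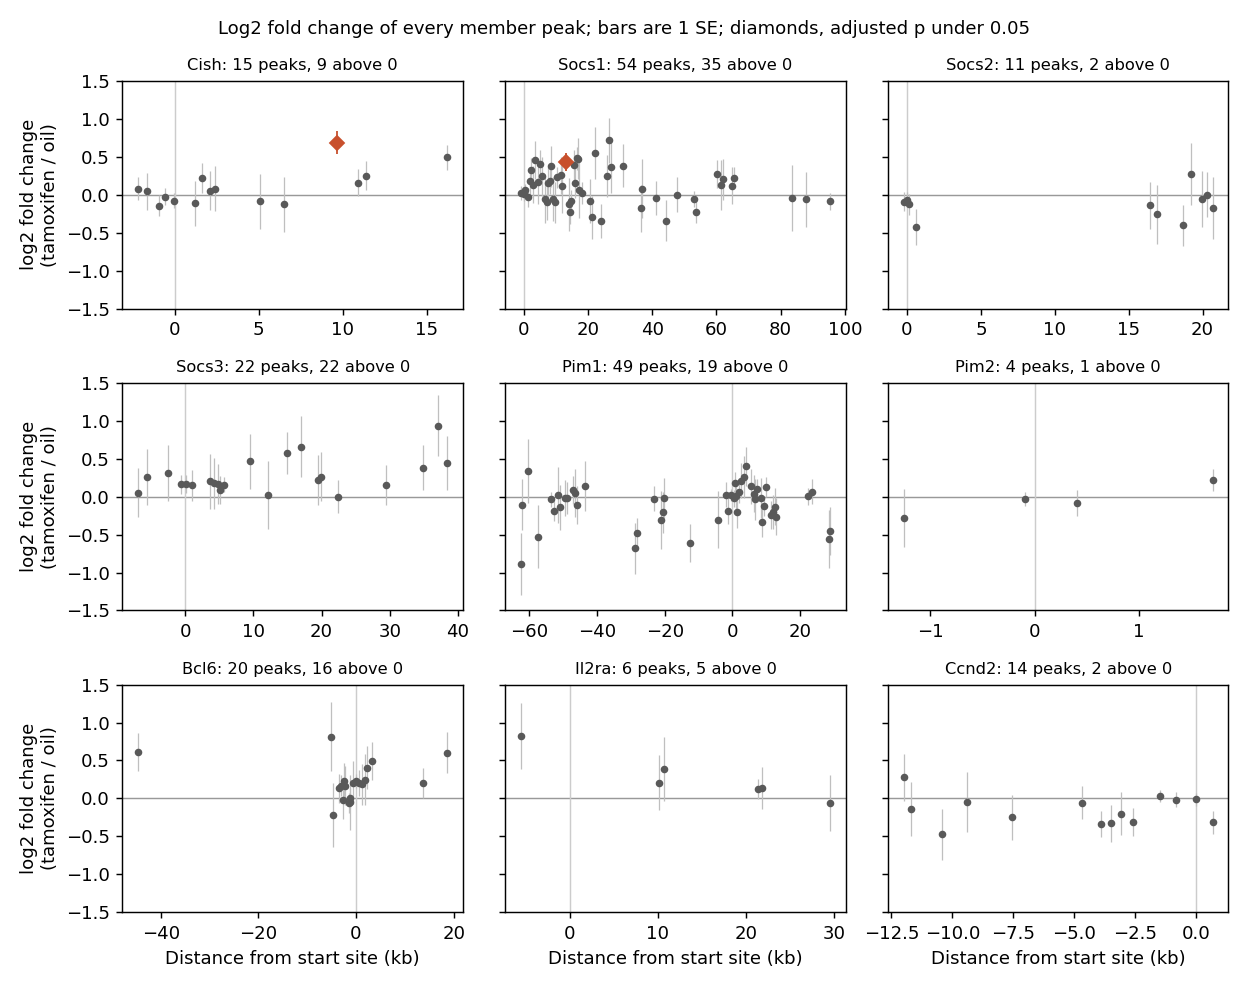
Log2 fold change (tamoxifen over oil) of each of the 195 peaks against its distance from the TSS in kb, 1 panel for each gene, with bars of 1 SE and diamonds for the 2 peaks with a DESeq2 adjusted p under 0.05. All 22 Socs3 peaks lie above 0, whereas 12 of 14 Ccnd2 peaks and 9 of 11 Socs2 peaks lie below it. Over all peaks with a listed distance 49.7% lie above 0, and peaks of 1 gene need not vary independently.

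Cish encodes the SH2-domain inhibitor that binds cytokine receptors and is a classic direct target of STAT5. Its peak 9672 bp downstream of the TSS, between Cish and Hemk1, was the member peak with the smallest p. It held 141.2, 128.7 and 136.2 normalized tags in oil replicates 1, 2 and 4 and 248.4, 218.4 and 188.1 in tamoxifen replicates 1, 3 and 4. The lowest tamoxifen library thus lay above the highest oil library, and replicate 4 was the lowest of the tamoxifen group. The means were 135.4 ± 6.28 and 218.3 ± 30.2 (SD, n = 3 each), a log2 fold change of 0.69 (SE 0.156, DESeq2 adjusted p = 0.00215), or 1.61-fold with a 95% interval of 1.30 to 1.99. With 1 library left out, the adjusted p stayed under 0.05 for tamoxifen replicate 4 (0.000152), oil replicate 1 (0.0320) and tamoxifen replicate 3 (0.0439). It did not for oil replicate 2 (0.0692), oil replicate 4 (0.0508) and tamoxifen replicate 1 (0.121).

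The start-site peak of Cish, with its pair of STAT5 sites, is given beside it. It held 533.9, 491.5 and 478.4 normalized tags after oil and 462.0, 466.8 and 495.4 after tamoxifen, and the groups overlapped (log2 fold change -0.08, 95% interval -0.27 to 0.11, adjusted p = 0.943). Of the other 3 Cish peaks with a site, at +1219, +1623 and +11378 bp, none passed, with log2 fold changes of -0.11, 0.22 and 0.25. The peak at +16236 bp, named here after its values were seen, rested on 137.5 against 193.0 tags (means) and had groups that did not overlap, with an adjusted p of 0.137. Over the 15 Cish peaks, 9 log2 fold changes were positive, and 7 to 11 with 1 library left out.

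Socs1 encodes a potent inhibitor that binds JAK kinases and also restrains interferon signaling. The peak 13253 bp downstream of its TSS, in the intergenic stretch that holds the 2 printed sites, had 278.0, 228.2 and 257.1 normalized tags after oil and 338.3, 363.2 and 331.5 after tamoxifen. Every tamoxifen library lay above every oil library. The means were 254.4 ± 25.01 and 344.3 ± 16.7 (SD, n = 3 each), a log2 fold change of 0.44 (SE 0.121, DESeq2 adjusted p = 0.0284), or 1.35-fold with a 95% interval of 1.15 to 1.60. The call held without tamoxifen replicate 4 (adjusted p = 0.0156). It was lost when any other library was left out, at 0.0811, 0.417 and 0.225 for oil replicates 1, 2 and 4, and 0.153 and 0.363 for tamoxifen replicates 1 and 3.

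The start-site peak of Socs1 held 822.9, 809.4 and 747.2 normalized tags after oil and 785.8, 851.2 and 755.2 after tamoxifen. The groups overlapped, and the log2 fold change was 0.01 (95% interval -0.16 to 0.17, adjusted p = 0.998). Downstream of it, 8 Socs1 peaks had groups that did not overlap with tamoxifen higher (14.8% of the 54, against 11.8% of all peaks) and 1 with tamoxifen lower (1.85%, against 9.99%). Among the 8 Socs1 peaks with a site, 7 log2 fold changes were positive, the largest being 0.72 at +26582 bp (31.6 against 51.8 tags, adjusted p = 0.326). The peak at +16508 bp, which holds a TTCCTGGAA site and is named after its values were seen, had a log2 fold change of 0.48 (SE 0.151, adjusted p = 0.0758) and passed without tamoxifen replicate 4 (adjusted p = 0.00782). The site-holding Socs1 peaks at +60186 and +95450 bp lie in introns of Clec16a. Over all 54 Socs1 peaks, 35 log2 fold changes were positive, and 33 to 38 with 1 library left out.

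**Figure D2:**
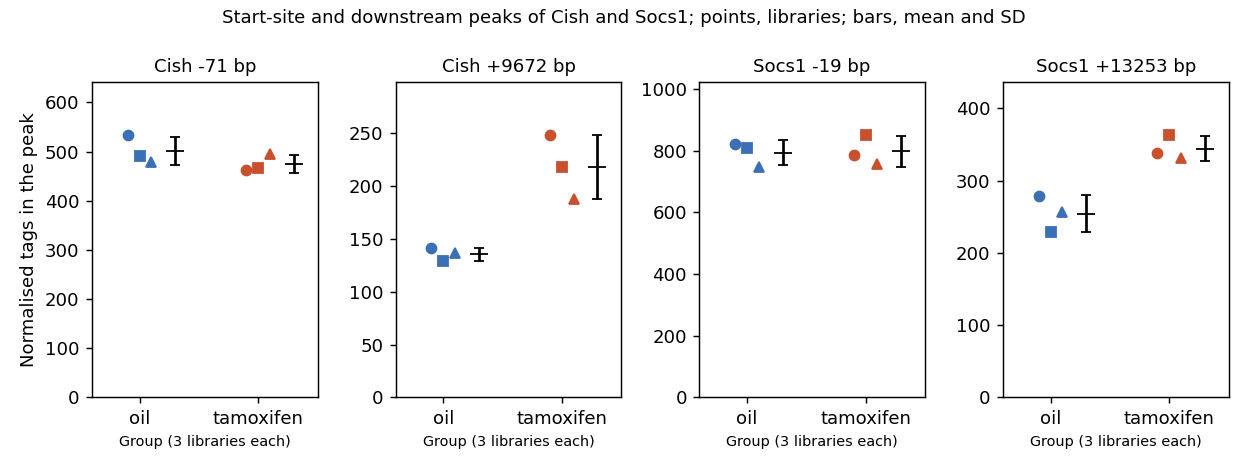
Normalized tags of the start-site peaks and of the downstream peaks of Cish and Socs1 in each library (circles, squares and triangles for the libraries of a group, in order of replicate number), with bars for the mean and SD of 3 libraries. The tamoxifen libraries lie above the oil libraries in the downstream peaks, from 188.1 to 248.4 against 128.7 to 141.2 for Cish, and overlap with them in the start-site peaks.

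Socs2 encodes the feedback inhibitor best known for limiting growth hormone signaling, which also runs through STAT5. Its start-site peak, with the closely spaced TTCCTGGAA pair, held 544.9, 557.8 and 499.9 normalized tags after oil and 479.4, 521.4 and 531.7 after tamoxifen. The groups overlapped (log2 fold change -0.06, 95% interval -0.25 to 0.12, adjusted p = 0.960). Its peak with the smallest p (chr10:95414362-95414959) lay in intron 2, and its distance of +623 bp is from another listed TSS of Socs2. It held 69.5, 72.2 and 75.3 tags after oil and 48.3, 56.8 and 56.8 after tamoxifen. Those groups did not overlap, but the difference did not pass (log2 fold change -0.42, SE 0.238, adjusted p = 0.639). Of the 11 Socs2 peaks, 9 log2 fold changes were negative, and with 1 library left out 1 to 3 were positive.

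Socs3 encodes the inhibitor that acts mainly on receptors of the gp130 family and on the G-CSF receptor. Each of its 22 log2 fold changes was positive, from 0.00 to 0.93, with a median of 0.19, which was chosen for mention after the values were seen. Among 1904 genes with at least 20 peaks, 13 had every log2 fold change positive (0.683%). That group has no upper limit and includes genes with more peaks, such as Socs1 with 54, for which an all-positive count is harder to reach. The share may thus be higher among genes with 22 peaks, and peaks of 1 gene need not vary independently. Over the scalings and tests that used all 6 libraries, 21 or 22 of the 22 were positive, and with 1 library left out 19 to 22. None of the 22 passed by itself, against 1.39% of all peaks, and 6 had groups that did not overlap with tamoxifen higher (27.3%, against 11.8%).

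The Socs3 peak at +162 bp, in exon 1, held 293.4, 276.0 and 265.2 normalized tags after oil and 338.3, 309.7 and 290.5 after tamoxifen, with groups that overlapped (log2 fold change 0.17, SE 0.120, adjusted p = 0.782). The most open Socs3 peak per kb lay at +5744 bp and held 379.5, 440.8 and 379.9 tags after oil and 446.6, 443.4 and 450.7 after tamoxifen. The lowest tamoxifen library stood just above the highest oil library there (log2 fold change 0.16, SE 0.104, adjusted p = 0.741). The peak with the smallest p, at +37069 bp, was faint, with 15.4, 17.6 and 14.3 tags after oil and 32.9, 33.4 and 24.2 after tamoxifen. Its log2 fold change was 0.93 (SE 0.400, adjusted p = 0.370), and 1.07 (adjusted p = 0.179) without tamoxifen replicate 4.

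Pim1 encodes a serine/threonine kinase that promotes survival downstream of STAT5. The peak over its promoter, at -460 bp, was among the most open of the set, with 1017, 969.3 and 879.8 normalized tags after oil and 976.2, 1019 and 914.4 after tamoxifen. The groups covered nearly the same range (log2 fold change 0.02, 95% interval -0.14 to 0.18, adjusted p = 0.992). The nearest peak to the TSS, at +331 bp, gave 326.5, 329.6 and 340.5 tags after oil and 306.4, 345.4 and 329.6 after tamoxifen (log2 fold change -0.02, adjusted p = 0.994).

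None of the other Pim1 peaks passed either. The smallest p was at -12592 bp, in an intron of the noncoding gene Gm26885, where a TTCCCAGAA site lies. That peak held 82.7, 82.9 and 68.1 tags after oil and 49.3, 41.2 and 61.5 after tamoxifen, without overlap. Its log2 fold change was -0.61 (SE 0.247, adjusted p = 0.302), and -0.77 (adjusted p = 0.0923) without tamoxifen replicate 4. Of the 49 Pim1 peaks, 9 had groups that did not overlap, each with tamoxifen lower (18.4%, against 9.99% of all peaks). In the 49 peaks 30 log2 fold changes were negative, and with 1 library left out 15 to 21 were positive. The peak at -28090 bp passed only in the fit without tamoxifen replicate 4 (log2 fold change -0.66, adjusted p = 0.0347, against -0.47 and 0.315 with all libraries).

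Pim2, the second PIM kinase, had 4 peaks, all promoter-proximal. Its start-site peak held 530.6, 531.4 and 512.5 normalized tags after oil and 521.0, 518.1 and 501.0 after tamoxifen, with groups that overlapped (log2 fold change -0.03, 95% interval -0.21 to 0.15, adjusted p = 0.988). The peak at +1711 bp, in intron 3, gave 194.1, 185.3 and 187.3 tags after oil and 227.1, 254.0 and 179.7 after tamoxifen. Replicate 4 lay below every oil library and the other tamoxifen libraries above them (log2 fold change 0.22, SE 0.150, adjusted p = 0.771). Without replicate 4 the log2 fold change was 0.35 (adjusted p = 0.210).

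Bcl6 encodes a transcriptional repressor that shares many of its DNA sites with STAT5, which is known to repress it in lymphoid cells. Its start-site peak, the only 1 of the peaks nearest each TSS whose groups did not overlap (1 of 9, with tamoxifen higher, against 11.8% of all peaks), held 538.3, 555.8 and 469.5 normalized tags after oil and 578.0, 623.9 and 627.6 after tamoxifen. The means were 521.2 ± 45.6 and 609.8 ± 27.6 (SD, n = 3 each), and the difference did not pass (log2 fold change 0.23, SE 0.0961, 95% interval 0.04 to 0.42, adjusted p = 0.351). The peak at -44645 bp had the smallest p, with 44.1, 49.7 and 44.8 tags after oil and 63.8, 65.7 and 81.9 after tamoxifen (log2 fold change 0.61, SE 0.252, adjusted p = 0.328). Replicate 4 was the highest there, and without it the log2 fold change was 0.49 (adjusted p = 0.464). By contrast, the most open Bcl6 peak per kb, at -1444 bp of the second promoter, overlapped between groups, with 269.2, 342.3 and 317.2 tags against 282.2, 274.1 and 335.2 (log2 fold change -0.06, adjusted p = 0.979). Of the 20 Bcl6 peaks, 16 log2 fold changes were positive, 14 to 17 with 1 library left out.

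Il2ra encodes the alpha chain of the interleukin-2 receptor, a marker of activated T cells that STAT5 switches on. No peak was listed at its start site. The nearest peak, at -5539 bp, held only 24.3, 15.6 and 17.0 normalized tags after oil and 34.8, 51.3 and 14.9 after tamoxifen, and tamoxifen replicate 4 lay below each oil library (log2 fold change 0.82, SE 0.433, adjusted p = 0.583). Without that library the log2 fold change was 1.19 (SE 0.404, adjusted p = 0.0734). The most open peak, at +21398 bp in intron 1, gave 222.8, 234.0 and 243.7 tags after oil and 282.2, 262.9 and 221.6 after tamoxifen, again with replicate 4 lowest (log2 fold change 0.13, SE 0.134, adjusted p = 0.913, and 0.22 with 0.498 without it). Of the 8 T-cell marker genes, 6 sums had a positive and 2 a negative log2 fold change (Cd3g at -0.36 and Lck at -0.20), and 1, Cd3d, passed. Over all gene sums 6.0% passed, and the median log2 fold change was -0.01. The sort for Lin- cells leaves out cells that carry lineage surface markers, and what part T cells had in the Il2ra values was not tested.

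Ccnd2 encodes cyclin D2, which drives entry into the cell cycle. Its start-site peak held 753.4, 712.8 and 727.5 normalized tags after oil and 728.8, 748.7 and 699.3 after tamoxifen, with groups that overlapped (log2 fold change -0.01, 95% interval -0.17 to 0.15, adjusted p = 0.996). At +693 bp the values were 203.0, 191.1 and 230.3 after oil and 148.9, 171.6 and 181.6 after tamoxifen. Every tamoxifen library lay below the oil libraries there, and the difference did not pass (log2 fold change -0.32, SE 0.150, adjusted p = 0.474). Of the 14 Ccnd2 peaks 12 log2 fold changes were negative, and with 1 library left out 2 to 4 were positive. The 2 peaks with a site lie at -3908 bp (-0.34, adjusted p = 0.533), in an intron of the noncoding gene 9330179D12Rik, and at -828 bp. Their median log2 fold change was -0.175, against -0.169 for the Ccnd2 peaks without a site.

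The peaks nearest each TSS were ordered by their mean level after oil, per kb of peak width because the peaks differ in width. Of these peaks that of Socs1 was the most open, with 3589 normalized tags per kb (3381 to 3724 over the oil libraries). Ccnd2 (2621), Pim2 (2611) and Socs2 (2568) followed with ranges that overlapped each other. Cish (2228, range 2126 to 2373) lay below Socs2 (2404 to 2682) and above Bcl6 (1336). Bcl6 (1204 to 1425) and the Pim1 peak at +331 bp (1291 to 1346) overlapped, and Socs3 (1110 to 1228) lay below that Pim1 peak. The Pim1 promoter peak at -460 bp is not in this order, because that at +331 bp is nearer the TSS. It held 3437 per kb after oil (3165 to 3658), a range that overlapped that of Socs1. The Il2ra peak at -5539 bp stood apart at 82.5 per kb (67.8 to 106).

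**Figure D3:**
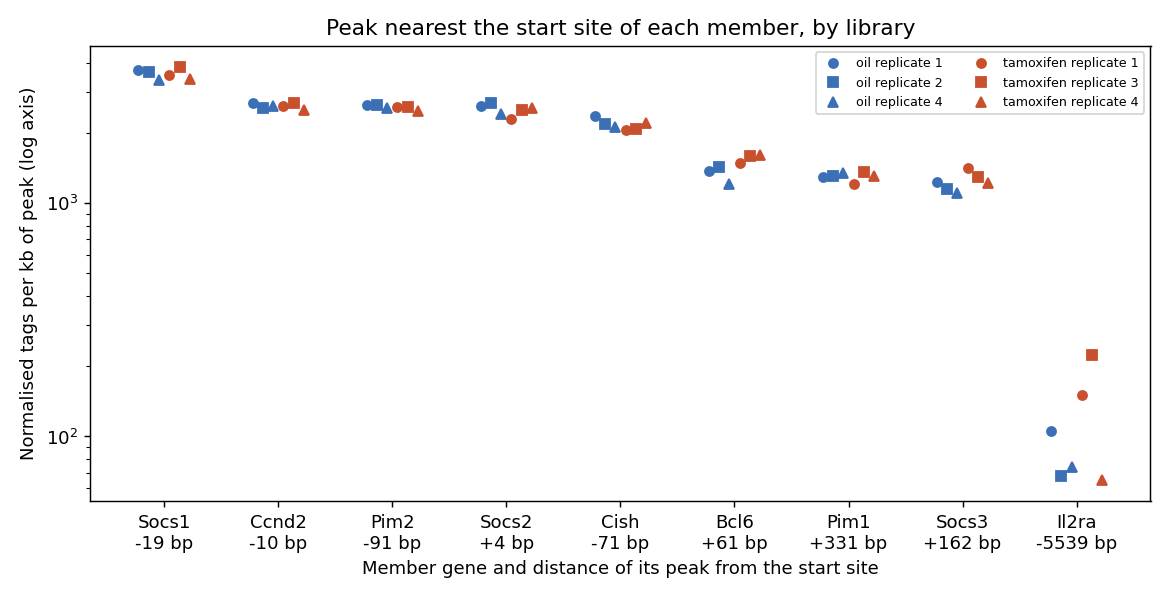
Normalized tags per kb of the peak nearest each TSS, on a log axis, for each of the 6 libraries, ordered by the oil mean. Oil and tamoxifen libraries lie close together for 8 of the 9 genes, from Socs1 at 3589 per kb after oil to Socs3 at 1164. The Il2ra peak, at -5539 bp, lies lowest, from 67.8 to 106 per kb after oil and 64.8 to 223 after tamoxifen.

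Tags were also summed over the peaks of each gene, which lowers counting error, and all 19781 genes were fitted with DESeq2. None (0) of the 9 passed an adjusted p under 0.05, against 6.0% of all genes. At an unadjusted p under 0.05 there were 2, Socs3 and Bcl6, against 17.8% of all genes. With edgeR 1 passed, Socs3, against 6.76% of all genes. Groups did not overlap with tamoxifen higher in Bcl6, Socs3 and Socs1 (3 of 9, against 16.4% of all genes) and with tamoxifen lower in Pim1, Socs2 and Ccnd2 (3 of 9, against 14.2%). The median log2 fold change was 0.06 over the 9 genes and -0.01 over all genes.

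Socs3 came closest to the threshold among the sums. It had 1692, 1797 and 1678 normalized tags after oil and 2054, 1889 and 1881 after tamoxifen, so that each tamoxifen library exceeded each oil library. The log2 fold change was 0.17 (SE 0.0642, 95% interval 0.05 to 0.30, DESeq2 adjusted p = 0.0903). It was 0.20 with an adjusted p of 0.0210 without tamoxifen replicate 4. The adjusted p was 0.0461 with edgeR, which called 6.76% of all genes. With size factors from total tags the log2 fold change was 0.21 (DESeq2 adjusted p = 0.0319), and 7.28% of all genes passed. That scaling moved the median log2 fold change of all gene sums from -0.01 to 0.03, so the Socs3 gain is in part a shift of all genes. With any other library left out the adjusted p lay between 0.169 and 0.540.

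The Bcl6 sum was 2119, 2272 and 2091 normalized tags after oil and 2356, 2319 and 2515 after tamoxifen (log2 fold change 0.15, 95% interval 0.03 to 0.27, adjusted p = 0.141, and 0.11 with 0.200 without tamoxifen replicate 4). The Socs2 sum was 1318, 1384 and 1340 after oil and 1241, 1165 and 1283 after tamoxifen (log2 fold change -0.13, 95% interval -0.27 to 0.00, adjusted p = 0.297). The remaining sums had log2 fold changes of -0.09 for Ccnd2 (95% interval -0.19 to 0.02), -0.06 for Pim1 (-0.16 to 0.03), 0.06 for Socs1 (-0.03 to 0.15), 0.06 for Cish (-0.06 to 0.19), -0.01 for Pim2 (-0.16 to 0.14) and 0.15 for Il2ra (-0.06 to 0.37). The widest interval, that of Il2ra, ran from 0.961-fold to 1.29-fold. Without tamoxifen replicate 4 the log2 fold change of the Il2ra sum was 0.22 (DESeq2 adjusted p = 0.183). The 9 values thus had both signs and none passed. The Pim2 value changed its sign with size factors from total tags (0.02, where the median over all genes was 0.03). It also did so without oil replicate 4 (0.00) or tamoxifen replicate 4 (0.01).

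**Figure D4:**
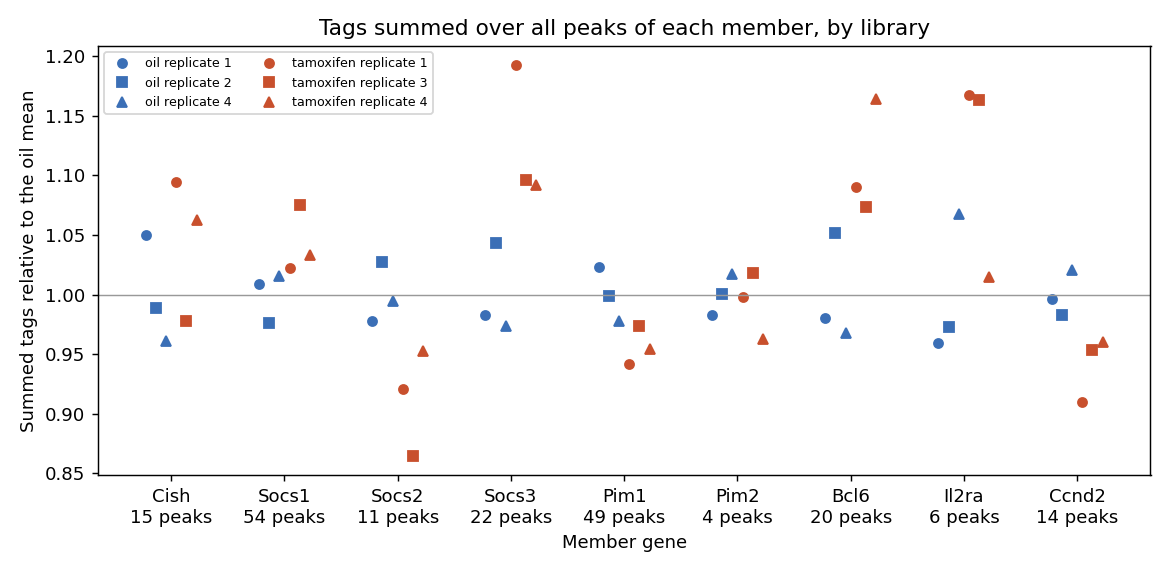
Normalized tags summed over all peaks of each gene, divided by the mean of the oil libraries, for each of the 6 libraries. The tamoxifen libraries lie above the oil libraries for Socs1, Socs3 and Bcl6 and below them for Socs2, Pim1 and Ccnd2, and none of these differences has an adjusted p under 0.05.

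Other genes of the pathway were taken from a list of 41 cytokine receptors, JAK kinases, signal transducers, inhibitors and further STAT5 targets. A peak was found for 39 of them (not for Socs4 and Foxp3), and 1 gene sum passed, with none (0) lower, against 6.0% of all genes. That gene was Csf2rb2, a beta chain of the interleukin-3 receptor, with 386.6, 422.3 and 404.2 normalized tags after oil and 484.1, 531.2 and 498.2 after tamoxifen. The groups were well apart (log2 fold change 0.32, SE 0.0991, DESeq2 adjusted p = 0.0284), but the call held in only 1 of the 6 fits that left out a library, that without tamoxifen replicate 4 (adjusted p from 0.0194 to 0.268 over the 6). Reads of Csf2rb2 can be split with its near-identical copy Csf2rb, whose sum had a log2 fold change of 0.12 (adjusted p = 0.372).

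Of the other roles, the smallest p among the kinases was that of Jak2, the main kinase of these receptors, at a log2 fold change of -0.10 (adjusted p = 0.349). Gab2, an adaptor, held it among the transducers (0.09, adjusted p = 0.557), the phosphatase gene Ptpn1 among the inhibitors (0.12, adjusted p = 0.141) and the cyclin gene Ccnd1 among the further targets (0.14, adjusted p = 0.310). Of the 594 peaks of these genes 2 passed (0.337%, against 1.39% of all peaks), both higher and both over 2-fold. The Ptpn1 peak at -80710 bp held 19.9, 16.6 and 24.2 normalized tags after oil and 52.2, 60.2 and 39.1 after tamoxifen (log2 fold change 1.31, adjusted p = 0.0143). The Jak1 peak at -33283 bp held 26.5, 29.3 and 44.8 after oil and 58.0, 111 and 54.9 after tamoxifen (log2 fold change 1.14, adjusted p = 0.0298), so that tamoxifen replicate 3 was far above the others. With 1 library left out the Ptpn1 peak passed in 1 of 6 fits and the Jak1 peak in 3 of 6, and without tamoxifen replicate 3 the Jak1 value was 0.74 (adjusted p = 0.958).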

How the data were processed

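The authors mapped reads to mm10 with Bowtie2, called and merged peaks with HOMER and counted tags per merged peak and library. The deposited table holds these raw tags, an estimated count in steps of 0.5, not normalized and limited to 3 tags at any position. The limit lowers the highest peaks, and peaks come from the libraries that were compared. Peaks were given to genes by HOMER's nearest TSS, which need not be the gene a peak acts on. Here tags were rounded and tested with DESeq2 1.42.0 (R 4.3.3) on all 175929 peaks, and on sums per gene within 100000 bp; normalized tags are tags divided by DESeq2's size factors, and edgeR 4.0.16 (robust, TMM) was an alternative. The fits were also run on simulated data, with the same dispersion for every feature and no library set apart. That run therefore says nothing on calls that hinge on tamoxifen replicate 4. The members and lists were chosen with earlier results of these data known. For each gene the text names the peak nearest the TSS, the highest per kb after oil, and those with an adjusted p under 0.05 or, with none, the smallest p. Pathway genes are named where their sum passed or held the smallest p of its role. The value of 1 marker gene is not reported here.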

Additional observations from a re-analysis of the deposited data

How the results depend on the processing

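The count of member peaks with an adjusted p under 0.05 (2 of 195) was 1 with distal and proximal peaks fitted separately (against 1.39% of all peaks). It was 0 to 5 with 1 library left out (0.358% to 3.71%) and 0 at a fold change over 2 (0.654%). It was also 0 with the replicate number as a block (against 0.0296% of all peaks) and 0 without the block on the same 4 libraries (0.0978%). With shares of all peaks this low, the counts of 0 say little about the member peaks. The count of gene sums (0 of 9) was 1, Socs3, with edgeR's quasi-likelihood test (6.76% of all genes) and with size factors from total tags (7.28%). It was 0 to 1 with 1 library left out (2.32% to 14.9% of all genes). The replicate block gave 0 gene sums (0.318% of all genes). Deviations of same-numbered libraries correlated at -0.0443 (number 1) and 0.0506 (number 4), so the numbers were not taken to pair the libraries. A minimum mean of 10 tags removed no (0) peak, so its values, counted below, only repeat those of the first fit. No value that passed in either of the fits compared changed its sign. Of all 369 values under alternatives 18 did, at -0.04 to 0.07 and with none (0) called, for the Pim2 sum and the peaks Socs1 -19, Pim1 -460, Pim1 +331, Bcl6 -1444 and Ccnd2 -10. DESeq2 gave no adjusted p for 10 of the 369, which stand here as not called. Of 252 values of named peaks under alternatives, 237 kept their side of the threshold and moved by less than 1 SE where not called. A further 3 moved further without being called, and 12 lost their call, all for Cish +9672 and Socs1 +13253. These 2 were the only named peaks called in the first fit, so most of the 237 were uncalled values that stayed uncalled. Of 117 values of gene sums, 114 stayed alike and 3, all Socs3, gained a call. Depth was a median of 45 to 57 tags in a peak, depending on the library, and the SE of the log2 fold change had a median of 0.25 over the 195 peaks and 0.32 over the Socs3 peaks.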
